A study of Mus musculus with 6 samples.

Results

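Cathepsins and legumain are proteases of the lysosome, and the transcripts of 10 of them (Ctsa, Ctsb, Ctsc, Ctsd, Ctsh, Ctsk, Ctsl, Ctss, Ctsz and Lgmn) were followed here by gene symbol, out of 52459 genes in the count table. All 10 were measured in every liver and all 10 passed the filter on low counts. RNA-Seq of whole liver was available for 6 male C57BL6J mice of the Alb-Cre/Cas9 F1 generation at 8 months of age. In 3 mice, an AAV8 vector given by vein at 4 to 5 weeks of age carried a control guide RNA under the U6 promoter (sgCtrl, mice 5.1, 7.1 and 7.2), and in the other 3 mice it carried a guide RNA against Prdx2, the gene of the peroxide-reducing enzyme peroxiredoxin 2 (sgPrdx2, mice 1.1, 1.3 and 3.2). Both groups carried the Alb-Cre and Cas9 alleles, were given the carcinogen diethylnitrosamine (DEN, 100 mg/kg) 3 weeks after the vector, and were then kept for 6 months on the CDA-HFD, a high-fat diet lacking choline, so the comparison is between diseased livers that differ in the guide RNA. The albumin promoter directs Cre to hepatocytes, whereas the RNA came from all cells of the liver, tumor nodules not being set apart in the labels.

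Lysosomal proteases are made as inactive precursors, carry a mannose 6-phosphate tag that sends them to the lysosome, and become active in its acid interior. Most cathepsins are cysteine proteases, Ctsd is an aspartic protease and Ctsa a serine carboxypeptidase, and legumain cuts after asparagine and also trims several cathepsins to their mature form. Macrophages, which digest what they engulf, hold large amounts of these enzymes, and hepatocytes make several of them too. In tissue, Ctss is known mainly from antigen-presenting cells.

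Total counts per liver ranged from 37462102 to 56865293, and 3 counts, taken as the limit of detection, stood for 0.0555 to 0.0921 CPM (reads scaled to a common library size, normalized by the TMM method over all genes), which covers counting error only. Prdx2 transcript was at 109, 117 and 132 CPM in sgCtrl livers 5.1, 7.1 and 7.2 and at 99.0, 112 and 149 CPM in sgPrdx2 livers 1.1, 1.3 and 3.2, with a log2 fold change of 0.01, so the guide labels could not be checked from RNA level. Of 17032 genes tested with edgeR's quasi-likelihood test, 262 (1.54%) were lower and 305 (1.79%) higher in sgPrdx2 livers at a Benjamini-Hochberg adjusted p under 0.05, and these shares are the background for the counts of proteases given next. Hepatocyte markers summed to 80892 to 88103 CPM in the sgCtrl group and 139264 to 184255 CPM in the sgPrdx2 group. Scaling by total counts or by 6 housekeeping genes (median log2 fold change 0.43 under TMM, with 0.45 for Atp5b and -0.07 for Hnrnpa2b1), in place of TMM, moved the median of all genes to -0.39 or -0.38 from -0.02 on the log2 scale. Directions of single proteases were therefore read relative to that shift.

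The sgPrdx2 livers held less Ctss and Lgmn transcript than every sgCtrl liver, at 55.2% and 61.3% of the sgCtrl means, and less Ctsb and Ctsk, at 71.98% and 73.17%. Ctsh, in contrast, was at 126% of its sgCtrl mean with overlapping groups, and Ctsa and Ctsz were at 99.7% and 101%. None of the 10 genes reached an adjusted p under 0.05 with edgeR. At an unadjusted p under 0.05, 4 were lower (Ctss, Lgmn, Ctsk and Ctsb), beside 11.9% of all tested genes lower and 13.0% higher at that level. DESeq2, run as an alternative without the filter, called 3 of them lower (Ctss, Lgmn and Ctsb), beside 5.78% of 15329 genes with an adjusted p called lower and 7.58% called higher, and it called 3 with the filter too, an alternative chosen after seeing the data. Groups did not overlap for 4 of the 10, all lower in sgPrdx2, beside 17.5% of all tested genes lower without overlap. The log2 fold change was negative for 8 of the 10, beside 51.7% of all genes tested. Ctsa, 1 of these 8, was at -0.0047, which is 0.012 relative to the median of all genes. The median of the 10 was -0.38, beside -0.02 over all genes tested. Without sgCtrl liver 7.2, 6 were negative and the median was -0.19, and without sgPrdx2 liver 1.1 the median was -0.26.

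**Figure D1:**
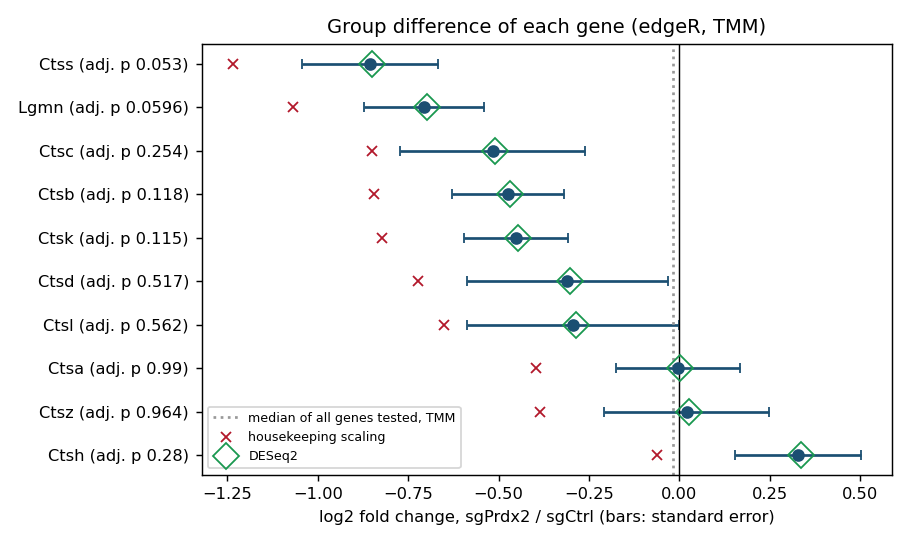
Log2 fold change of each gene between sgPrdx2 and sgCtrl livers (x axis; 3 livers per group), with genes on the y axis and edgeR adjusted p beside each name. Filled points are edgeR values with TMM and their standard errors, open diamonds are DESeq2 values, crosses are values scaled to 6 housekeeping genes, and the dotted line marks the median of all genes tested with TMM (-0.02). Ctss (-0.86) and Lgmn (-0.71) lie farthest to the left, and the crosses of Ctsa, Ctsz and Ctsh fall left of 0.

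Short stretches of the promoters are shown because the 10 genes are often treated as a group under shared transcription factors. The MiT/TFE factors (Tfeb, Tfe3, Mitf, Tfec) are known to bind an E-box, CACGTG, in lysosomal promoters, with TCACGTGA as its longer form, and PU.1, a factor of myeloid cells, binds around the core GAGGAAGT. RefSeq promoter windows (GRCm38.p6, 250 bases before to 50 after the transcription start) matched 8 of the 10 genes, with 10 windows, and Ctsb and Ctsh were not searched. Searched on both strands, CACGTG stood in windows of 4 genes (Ctsa, Ctsd, Ctsl and Lgmn) and in 7.15% of all 32851 windows. TCACGTG, which contains it, stood in 3 (Ctsa, Ctsd and Lgmn; 3.77% of windows), and TCACGTGA, which contains both, in 2 (Ctsa and Ctsd; 0.974%). GAGGAAGT, a separate motif that contains none of these, stood in windows of Ctsc and Ctss (3.202% of windows), at the transcription start itself in Ctss. The stretches below are given 5′ to 3′ on the strand of the gene, with the motif in capitals (on the opposite strand for Ctsc). Each ends before the RefSeq transcription start of its window. In the gene models used here for gene spans and exon lengths, the start differs for Ctsa, Ctsd, Lgmn and Ctsl. Their stretches lie inside the annotated gene there, and only that of Ctsc lies before it.
Ctsa, chr2:164833743-164833772, plus strand: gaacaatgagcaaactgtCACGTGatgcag
Ctsd, chr7:142387908-142387937, minus strand: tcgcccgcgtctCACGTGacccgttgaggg
Lgmn, chr12:102439124-102439153, minus strand: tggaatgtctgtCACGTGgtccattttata
Ctsl, chr13:64370739-64370768, minus strand: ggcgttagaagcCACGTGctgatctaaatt
Ctsc, chr7:88277922-88277951, plus strand: tgtcactaactaACTTCCTCaggccacctc
Of the 4 genes with an E-box, Lgmn was lower in all sgPrdx2 livers, whereas Ctsa, Ctsd and Ctsl overlapped between groups. The matches describe letters in these windows and not binding, which was not measured.

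Ctss encodes cathepsin S, which cleaves the invariant chain of MHC class II in antigen-presenting cells and stays active near neutral pH. The gene lies on chromosome 3 (95526786 to 95556403, plus strand, GRCm38) with 8 merged exons, none of which shares sequence with another annotated gene. Its level was 1011, 672 and 892 CPM in sgCtrl livers 5.1, 7.1 and 7.2, and 433, 461 and 528 CPM in sgPrdx2 livers 1.1, 1.3 and 3.2. The highest sgPrdx2 liver was 21.4% under the lowest sgCtrl liver. The means were 858 ± 172 and 474 ± 48.5 CPM (SD, n = 3 each), a log2 fold change of -0.86 (SE 0.19, edgeR adjusted p = 0.0530), which ranked 612 by p among the genes tested. With each liver left out in turn, the log2 fold change lay between -1.01 and -0.72. The edgeR adjusted p was 0.0427 without sgCtrl liver 7.1, the lowest of its group, and 0.0575 to 0.171 without any other liver.

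Lgmn encodes legumain, the asparaginyl endopeptidase (chromosome 12, 102394084 to 102439813, minus strand). Its level was 390, 286 and 406 CPM in sgCtrl livers 5.1, 7.1 and 7.2. The sgPrdx2 livers 1.1, 1.3 and 3.2 lay close together at 219, 217 and 228 CPM, all 20.4% or more under the lowest sgCtrl liver. The log2 fold change was -0.71 (SE 0.17, edgeR adjusted p = 0.0596), and it lay between -0.85 and -0.61 with each liver left out in turn. The edgeR adjusted p was 0.0448 without sgCtrl liver 7.1 and 0.0758 to 0.195 without any other liver.

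Ctsb and Ctsk were the other 2 genes without overlap. Ctsb, which encodes cathepsin B, a cysteine protease with endopeptidase and carboxydipeptidase activity, had the most counts of the 10, at 2422, 1975 and 2424 CPM in sgCtrl livers 5.1, 7.1 and 7.2. In sgPrdx2 livers 1.1, 1.3 and 3.2 it was at 1601, 1607 and 1701 CPM, with a log2 fold change of -0.47 (SE 0.15, edgeR adjusted p = 0.118). Of the 50-base stretches of its exons (chromosome 14, 63122462 to 63145923, plus strand), 12.1% are also exonic in Fdft1 on the opposite strand, a cholesterol synthesis gene that rose (log2 fold change 0.83, edgeR adjusted p = 0.0487), and the strand setting of the counting is not given in the sources used here, so the reads of this stretch may not be assigned to 1 gene with certainty. Ctsk encodes cathepsin K, known for dissolving bone collagen in osteoclasts, and was the least abundant, at 23.1, 21.4 and 26.8 CPM in sgCtrl and 15.08, 18.03 and 19.07 CPM in sgPrdx2 livers, in the same mouse order (log2 fold change -0.45, SE 0.14, edgeR adjusted p = 0.115). Ctsk and Ctss are neighbours on chromosome 3, with 17423 bases between them.

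For Ctsc and Ctsl the group difference rested on sgCtrl liver 7.2. Ctsc encodes cathepsin C, the dipeptidyl peptidase that activates granule serine proteases of neutrophils and cytotoxic lymphocytes, and was at 117, 126 and 228 CPM in sgCtrl livers 5.1, 7.1 and 7.2. The sgPrdx2 livers 1.1, 1.3 and 3.2 were at 120, 110 and 99.4 CPM, close to the other sgCtrl livers, and the log2 fold change of -0.52 (SE 0.26, edgeR adjusted p = 0.254) became -0.15 without liver 7.2. Ctsl encodes cathepsin L, an endopeptidase of most cell types, and was at 996, 1181 and 2111 CPM in sgCtrl and 930, 1271 and 1298 CPM in sgPrdx2 livers. Its log2 fold change of -0.29 (SE 0.29, edgeR adjusted p = 0.562) turned to 0.10 without liver 7.2. Of the 50-base stretches of Ctsl, 26.3% also occur in other annotated genes, mainly Gm47123, antisense to it, and Gm49230, and neither is a row of the count table.

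On TMM-normalized CPM, liver 3.2 was the highest sgPrdx2 liver for all of the 10 genes but Ctsc. For Ctsa, Ctsh and Ctsz it was also above every sgCtrl liver on that scale. Liver 3.2 had the lowest TMM factor (0.805, against 0.885 and 0.951 in sgPrdx2 livers 1.1 and 1.3), which raises its CPM. These ranks of livers thus depend on the scaling. Ctsd, the aspartic endopeptidase cathepsin D, was at 1554, 1027 and 1474 CPM in sgCtrl livers 5.1, 7.1 and 7.2 and at 823, 900 and 1549 CPM in sgPrdx2 livers 1.1, 1.3 and 3.2. The sgPrdx2 livers 1.1 and 1.3 were thus below all sgCtrl livers and liver 3.2 was within the sgCtrl range. The log2 fold change of Ctsd was -0.31 (SE 0.28, edgeR adjusted p = 0.517). It was -0.64 without sgPrdx2 liver 3.2 and -0.47 without sgCtrl liver 7.1, and it shrank to -0.14 without sgPrdx2 liver 1.1, -0.17 without sgPrdx2 liver 1.3 and -0.20 without sgCtrl liver 5.1. The annotated gene Gm49369, on the same strand and not a row of the table, covers 32.4% of the 50-base stretches of Ctsd.

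Ctsz encodes cathepsin Z (also called X), a carboxypeptidase, and was at 631, 472 and 589 CPM in sgCtrl and 481, 468 and 767 CPM in sgPrdx2 livers, in the same mouse order. Its log2 fold change was 0.02 (SE 0.23, edgeR adjusted p = 0.964), -0.24 without sgPrdx2 liver 3.2 and -0.09 without sgCtrl liver 7.1. Ctsa, or protective protein, which shields beta-galactosidase and neuraminidase in the lysosome, was at 414, 355 and 413 CPM in sgCtrl and 353, 348 and 477 CPM in sgPrdx2 livers (log2 fold change -0.0047, SE 0.17, edgeR adjusted p = 0.990), and 11.6% of its 50-base stretches also occur in other genes, mainly Pltp and Neurl2 on the opposite strand. Of its 2 partner enzymes, Glb1 overlapped between groups (log2 fold change -0.10). Neu1 was higher in every sgPrdx2 liver than in any sgCtrl liver (log2 fold change 0.37, edgeR adjusted p = 0.172). Neither was called.

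Ctsh encodes cathepsin H, an aminopeptidase. Of the 10 it had the highest log2 fold change under TMM, with levels of 348, 318 and 367 CPM in sgCtrl livers 5.1, 7.1 and 7.2 and 409, 362 and 527 CPM in sgPrdx2 livers 1.1, 1.3 and 3.2. Liver 1.3 lay within the sgCtrl range. The log2 fold change was 0.33 (SE 0.17, edgeR adjusted p = 0.280), and it was 0.17 without sgPrdx2 liver 3.2. Under scaling by total counts or by housekeeping genes it was -0.06, which is 0.33 and 0.32 above the medians of all genes. Under these 2 scalings the log2 fold changes of Ctsz were -0.37 and -0.39, which is 0.012 and -0.0015 relative to those medians.

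Per length of merged exons (FPKM from TMM-normalized counts and GRCm38 gene models), the 10 genes spanned a wide range. A gene with many long annotated isoforms, such as Ctsl, gets a lower FPKM on this scale than the isoform in use would give. In sgCtrl livers, Ctss led with 632 ± 127 FPKM, followed by Ctsd with 575 ± 121, Ctsz with 391 ± 57.3 and Ctsb with 376 ± 42.8 FPKM (SD, n = 3). Ctsl at 220 ± 92.1 and Lgmn at 155 ± 28.0 FPKM came next, ahead of Ctsa at 83.5 ± 7.17, Ctsh at 76.6 ± 5.49, Ctsc at 27.0 ± 10.6 and Ctsk at 15.7 ± 1.83 FPKM. The ranges of neighbours overlapped from Ctss to Ctsb, between Ctsl and Lgmn, and between Ctsa and Ctsh. Within each sgCtrl liver, however, Ctss, Ctsd, Ctsz and Ctsb kept this order, and Ctsa was above Ctsh. In sgPrdx2 livers the order began with Ctsd (464 ± 170 FPKM), Ctsz (397 ± 117 FPKM) and Ctss (349 ± 35.7 FPKM), whose ranges overlapped. The ranges of Ctsh (96.2 ± 18.9 FPKM), Lgmn (95.2 ± 2.40 FPKM) and Ctsa (83.2 ± 15.5 FPKM) also overlapped there. Within each sgPrdx2 liver, Ctsh was above Ctsa (90.8 and 74.9, 80.5 and 73.7, 117 and 101 FPKM in livers 1.1, 1.3 and 3.2). Lgmn was above both in livers 1.1 and 1.3 and below both in liver 3.2.

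**Figure D2:**
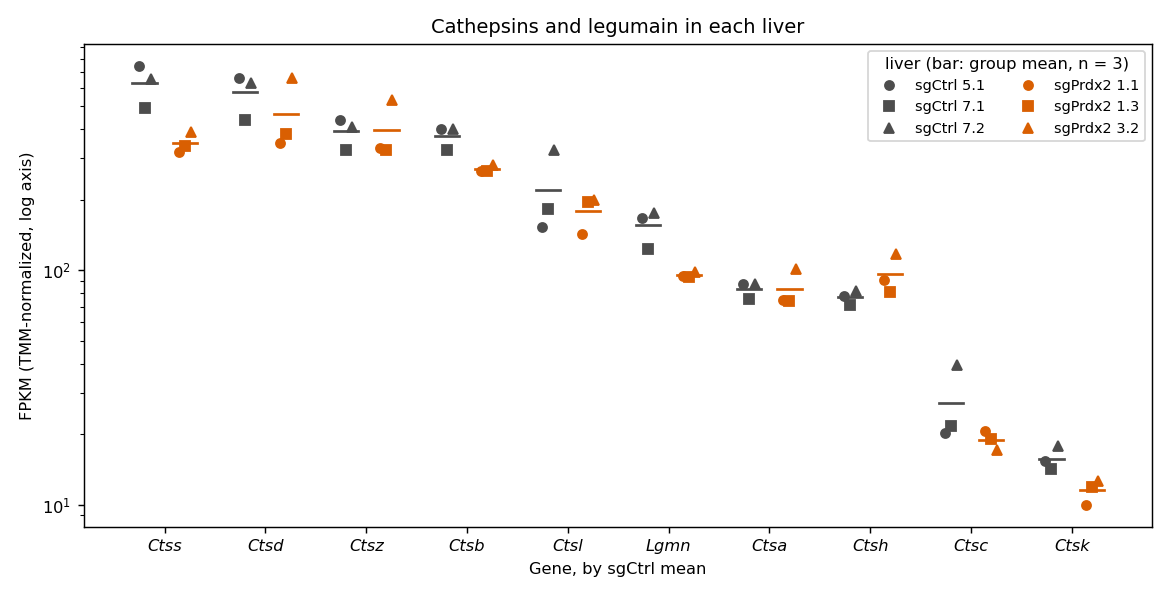
FPKM of each gene (log y axis) in each of the 6 livers, genes ordered by sgCtrl mean on the x axis. Grey symbols are sgCtrl and orange symbols sgPrdx2 livers, and horizontal bars are group means of 3 livers. The groups separate for Ctss, Ctsb, Lgmn and Ctsk, the grey triangle of liver 7.2 stands above the rest for Ctsl and Ctsc, and the orange triangle of liver 3.2 stands well above the other orange symbols for Ctsd, Ctsz, Ctsa and Ctsh.

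The makeup of the protease RNA, as each gene's share of the summed FPKM of the 10, does not depend on how libraries are scaled. The share of Ctss was 26.9%, 23.9% and 23.3% in sgCtrl livers 5.1, 7.1 and 7.2 and 18.7%, 19.0% and 16.1% in sgPrdx2 livers 1.1, 1.3 and 3.2. The share of Lgmn was also lower in every sgPrdx2 liver, at 6.07% ± 0.126 against 4.95% ± 0.772 (SD, n = 3 each). Shares without overlap were higher in sgPrdx2 livers for Ctsz (15.38% against 19.97%), Ctsh (3.03% against 4.90%) and Ctsa (3.30% against 4.24%). The shares of Ctsb (14.81% against 14.03%), Ctsd (22.4% against 23.1%), Ctsl, Ctsc and Ctsk overlapped. Each of the 5 differences without overlap had a two-sided exact permutation p of 0.1, the smallest that 3 livers against 3 allow, among 10 shares compared. Because shares add up to the whole, a lower share of Ctss raises the sum of the others but not each of them, as the lower share of Lgmn shows. How much of the higher shares of Ctsz, Ctsh and Ctsa follows from this was not tested.

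**Figure D3:**
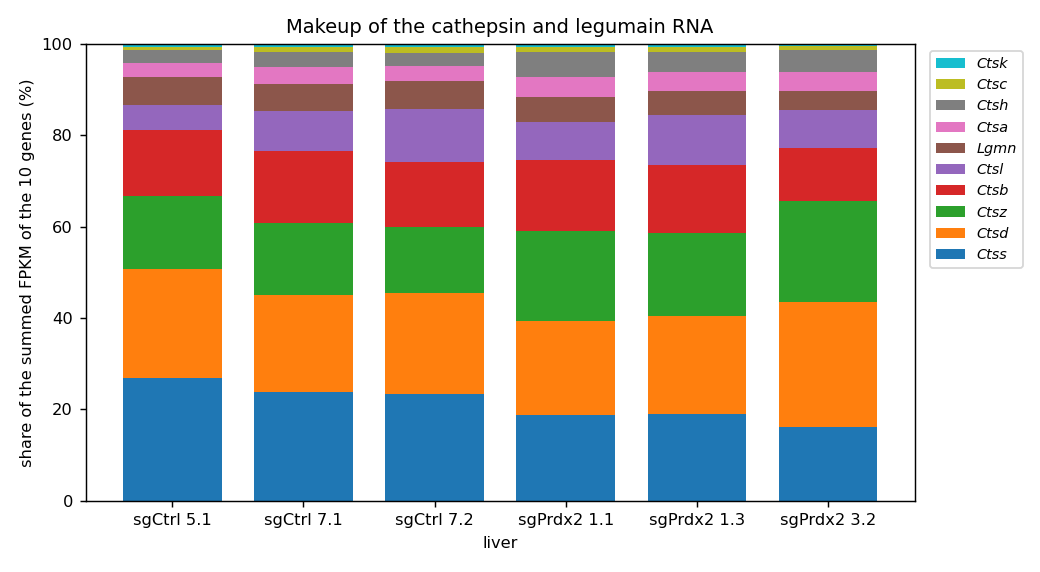
Share of each gene in the summed FPKM of the 10 genes (y axis, percent) in each liver (x axis). The lowest segment, Ctss, takes 23.3% to 26.9% in the sgCtrl group and 16.1% to 19.0% in the sgPrdx2 group, and the segments of Ctsz, Ctsa and Ctsh are taller in all sgPrdx2 livers.

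Markers of other cell types moved between the groups as well. The 18 macrophage markers summed to 5812, 5057 and 6072 CPM in sgCtrl livers 5.1, 7.1 and 7.2 and to 3553, 3624 and 4649 CPM in sgPrdx2 livers 1.1, 1.3 and 3.2. All 17 markers tested had a negative log2 fold change (median -0.46), 7 had no overlap (17.5% of all tested genes were lower without overlap), and 2 fell (1.54% of all), Gpnmb (-1.08, edgeR adjusted p = 0.0373) and Mpeg1 (-0.82, edgeR adjusted p = 0.0394). The defining markers Adgre1, Csf1r, Cd68 and Clec4f were present in both groups, and Cd163 was too low to test. In whole liver, fewer cells of a type and less RNA per cell cannot be told apart. The part of the macrophage markers in the lower Ctss, Lgmn, Ctsb and Ctsk levels was not tested.

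Set against the summed macrophage markers of the same liver, the 10 genes parted in 3 ways. The largest part of that sum was Lyz2, which overlapped between groups (log2 fold change -0.33). Its means were 2012 CPM in sgCtrl and 1602 CPM in sgPrdx2 livers, of summed means of 5647 and 3942 CPM. The ratio of Ctss was lower in all sgPrdx2 livers (difference in log2 ratio -0.32). Those of Ctsh (0.84), Ctsz (0.52) and Ctsa (0.51) were higher in all of them. The mean log2 CPM of the 17 tested markers differed by -0.48 (sgPrdx2 minus sgCtrl). A gene with an unchanged level therefore gets a higher ratio in sgPrdx2 livers, and the log2 fold changes of Ctsa and Ctsz were -0.0047 and 0.02. How many of all tested genes separate on this ratio was not counted. The remaining 6 ratios overlapped, with differences of 0.06 for Ctsb, 0.07 for Ctsk and Ctsc, 0.18 for Ctsd, 0.29 for Ctsl and -0.16 for Lgmn. The 4 ratios without overlap each had a two-sided exact permutation p of 0.1, the smallest possible, among 10 ratios. With the 17 tested markers weighted equally, an alternative chosen after seeing the data, Ctsh kept its separation (0.80), and the groups overlapped for Ctss (-0.36), Ctsa (0.47) and Ctsz (0.48).

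**Figure D4:**
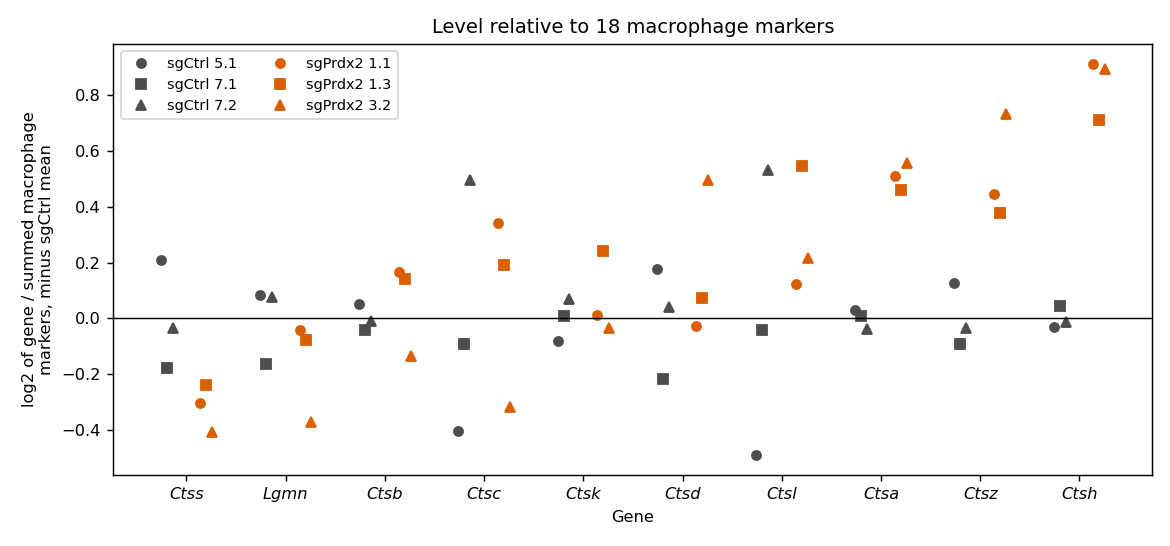
Log2 of the ratio of each gene to the sum of 18 macrophage markers in the same liver, minus the sgCtrl mean (y axis), for the 10 genes (x axis). Symbols are single livers, grey for sgCtrl and orange for sgPrdx2. All orange symbols lie below the grey ones for Ctss and above them for Ctsa, Ctsz and Ctsh, whereas the groups mix for Lgmn, Ctsb, Ctsc, Ctsk, Ctsd and Ctsl.

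Other markers gave the following values beside these genes. Among hepatocyte markers, 5 of 12 rose, with log2 fold changes of 1.35 for Ttr, 1.25 for Serpina1a, 0.96 for Cyp2e1 and 1.15 for Apoa1, and none fell. The 10 markers of stellate cells and fibroblasts summed to 2300 to 2659 CPM in the sgCtrl group and 1687 to 1770 CPM in the sgPrdx2 group, and the 6 cholangiocyte markers to 1630 to 1858 and 1217 to 1393 CPM. Col3a1 and Dcn had the highest levels of the first list (log2 fold changes -0.63 and -0.47), and Spp1 and Epcam of the second (-0.46 and -0.37). Neither list held a gene called by edgeR, with 6 and 3 genes lower at an unadjusted p under 0.05 and 3 and 1 called lower by DESeq2. Pecam1 fell among 7 endothelial markers (-0.77), whose sums of 236 to 260 and 164 to 242 CPM overlapped, and Cd8a fell among 9 lymphocyte markers (-0.84), whose sums of 26.7 to 35.8 and 25.0 to 32.2 CPM overlapped. Neutrophil markers were low in both groups, at sums of 7.33 to 13.3 and 8.11 to 12.2 CPM, with log2 fold changes of -0.13 for S100a9 and -0.15 for S100a8, and Ly6g had 2 counts in all. None of them was called by edgeR or DESeq2, and 2 were lower and 1 higher at an unadjusted p under 0.05 with edgeR. The part of these cell types in the protease levels was not tested.

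Most of the remaining genes of the cathepsin family were scarce in these livers. Of 16 others, 7 could be tested and 6 had no count in any liver. None was called by edgeR, 3 were lower at an unadjusted p under 0.05, and DESeq2 called 2 lower. The most abundant were Tinagl1, a secreted relative without protease activity (85.5 against 67.6 CPM, log2 fold change -0.34), and Ctso (67.2 against 69.3 CPM, 0.04). The endogenous inhibitors did not move one way. Of 16, 8 were tested and none was called by edgeR, with 1 lower and 2 higher at an unadjusted p under 0.05, and DESeq2 called the same numbers. Kng1, a plasma kininogen of hepatocytes that inhibits cysteine cathepsins, had the highest level (1655 against 2721 CPM, log2 fold change 0.72, edgeR adjusted p = 0.0951), and Cst3, the secreted inhibitor cystatin C, was at 403 and 407 CPM (0.01). Kng1 has a closely similar paralog, Kng2, and how reads common to both were counted is not known.

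Other parts of the lysosome were compared in the same fit. Of 42 further lysosomal enzymes and cofactors, 2 fell and none rose (1.54% and 1.79% of all tested genes), with a median log2 fold change of -0.13. At an unadjusted p under 0.05 with edgeR, 9 were lower and 1 was higher, beside 11.9% and 13.0% of all tested genes. DESeq2 called 6 lower and none higher. Without overlap, 14 were lower and 5 higher, beside 17.5% of all tested genes lower without overlap. Psap, the precursor of the saposins that help degrade sphingolipids, was at 2382, 1915 and 2177 CPM in sgCtrl livers 5.1, 7.1 and 7.2 and 1275, 1314 and 1115 CPM in sgPrdx2 livers 1.1, 1.3 and 3.2 (-0.81, edgeR adjusted p = 0.0455). Prcp, a lysosomal carboxypeptidase, fell by 0.58 on the log2 scale (edgeR adjusted p = 0.0466). Unlike Ctsd and Ctsz, Psap was not raised in sgPrdx2 liver 3.2, which was its lowest. Of 15 lysosomal membrane proteins, Laptm5, a protein of blood-derived cells, fell (-0.76, edgeR adjusted p = 0.0491) and the median was 0.01. Cd68 stood in this list and among the macrophage markers.

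The sorting, acidification and transcription factor lists held no gene called by edgeR. Of 12 sorting receptors and tagging enzymes, 2 were lower at an unadjusted p under 0.05 and DESeq2 called none. Without overlap, 4 were lower and 1 was higher, beside 17.5% of all tested genes lower without overlap. Those 4 include both mannose 6-phosphate receptors, Igf2r (log2 fold change -0.51) and M6pr (-0.22). The most abundant were Lrp1 (log2 fold change 0.26), an endocytic receptor that also takes up proteases, and Scarb2 (189.6 and 189.5 CPM), the receptor of glucocerebrosidase. Of 16 subunits of the vacuolar ATPase, the proton pump of the lysosome, 4 were lower and none higher at an unadjusted p under 0.05, and DESeq2 called 1. The log2 fold change was negative for 12 of them, beside 51.7% of all tested genes. Without overlap, 7 were lower and 1 was higher. The 2 most abundant subunits were Atp6v1e1 (0.22) and Atp6ap1 (-0.27). Of the 4 MiT/TFE factors, 3 were lower at an unadjusted p under 0.05, beside 11.9% of all tested genes, and DESeq2 called 1. The log2 fold changes of the 4 were -0.56 for Mitf, -0.48 for Tfec, -0.28 for Tfe3 and 0.03 for Tfeb. The medians of the 3 lists were -0.16, -0.11 and -0.38. Under scaling by total counts or by housekeeping genes, all tested genes of these 3 lists had negative log2 fold changes, as did all 10 proteases. So did all 42 further lysosomal enzymes and cofactors and all 15 lysosomal membrane proteins. The medians of all genes were -0.39 and -0.38 under these scalings, so a negative sign there was not particular to these lists.

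**Figure D5:**
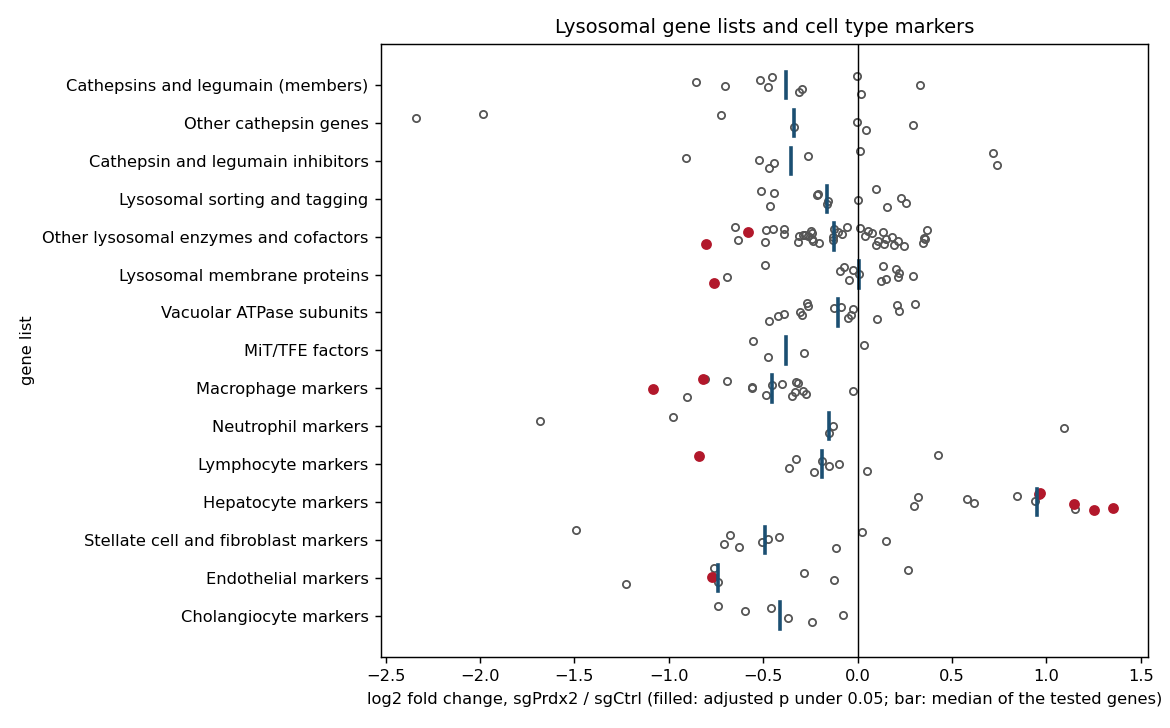
Log2 fold change between sgPrdx2 and sgCtrl livers (x axis) of the tested genes of each list (y axis). Filled circles had an edgeR adjusted p under 0.05, open circles did not, and vertical bars are list medians. The cathepsin and legumain bar lies at -0.38, the hepatocyte bar at 0.95 and the macrophage bar at -0.46, and no filled circle stands in the cathepsin row.

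The mean profile of the 10 genes, taken over their standardised log2 CPM, was highest in sgCtrl liver 7.2 (1.40 SD units), then sgCtrl 5.1 (0.67) and sgPrdx2 3.2 (0.43). It was lowest in sgPrdx2 livers 1.1 (-1.14) and 1.3 (-0.97), with sgCtrl 7.1 at -0.39. Single genes of the 10 differed from it by a root mean square of 0.36 (Ctsd) to 1.24 SD units (Ctsh). It is thus an average and not a profile that each of them follows. On this profile, which uses TMM-normalized CPM, sgPrdx2 liver 3.2 thus stood above sgCtrl liver 7.1. Among genes of at least 1 CPM, the 5 closest to it over the 6 livers were Clec10a, a lectin of macrophages and dendritic cells (root mean square difference 0.065 SD units), Aldh3b1, an aldehyde dehydrogenase (0.115), Nrip2 (0.130), Ecscr, an endothelial protein (0.149), and Fabp5, a fatty acid binding protein (0.149). None of these 5 was called between the groups by edgeR.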

How the data were processed

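RNA-Seq of 6 mouse livers, 3 sgCtrl and 3 sgPrdx2, was analysed, with groups taken from the guide RNA named for each sample. The authors deposited whole-number read counts per gene without normalization, and their notes name HISAT2, HTSeq, DESeq2 and GRCm38, without versions. The annotation and strand setting are not given in the sources used here. A second table with the authors' own DESeq2 comparison (fold changes, p-values) was not used.

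The counts were tested with edgeR 4.0.16 under R 4.3.3 (filterByExpr with a minimum count of 10, TMM, glmQLFit and glmQLFTest, both groups and no further term). A gene was called at an adjusted p under 0.05 (Benjamini-Hochberg, over 17032 genes), and the biological coefficient of variation was 0.213. SE was taken as the log2 fold change over the root of the F statistic. Single values per liver were compared by two-sided exact permutation tests. FPKM used merged exon lengths of GRCm38 gene models, which need not be those of the authors. Shares of sequence with other genes are 50-base stretches found in their transcripts. No pair of libraries had counts within sampling noise (chi-square per degree of freedom of at least 35.3), and each liver came from its own mouse. The edgeR fit was tested on simulated data, with changes larger than any seen among the 10 genes. That test does not show how well changes of their size are found.

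The 10 genes, the other gene lists and the tests were chosen with earlier results of these data known. Named genes are the 10, Prdx2, up to 4 called genes of each other list by smallest p (where none was called, the 2 of highest mean CPM), and the 5 nearest profiles, with a pseudocount of 0.5 CPM. Glb1, Neu1, Kng2, Igf2r, M6pr, Mitf, Tfec, Ly6g, Cd163, Adgre1, Csf1r, Cd68, Clec4f, Lyz2 and the genes that share exons with the 10 were added after their values were seen. Alternatives were RLE, upper-quartile, total-count and housekeeping scaling, other filters, DESeq2 1.42.0 (without and with the filter), an adjusted p under 0.01 and leaving out each liver.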

Additional observations from a re-analysis of the deposited data

How the results depend on the processing

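With 3 livers per group, no exact permutation p can go below 0.1, and the depth was sufficient to count all 10 genes in every liver. Of all genes, 567 were called, against 3247 with total counts (3041 lower, 206 higher), 989 with housekeeping scaling (919 lower, 70 higher), 1128 without a filter, 2048 with DESeq2 (2118 with the filter kept, chosen after seeing the data), 0 at an adjusted p under 0.01 with edgeR, where 4241 had an unadjusted p under 0.05, and 0 to 619 without 1 liver. It was 0 without sgCtrl 5.1, sgCtrl 7.2, sgPrdx2 1.1 or sgPrdx2 1.3. Of the 10 proteases, none was called, against 5 with total counts, 4 with housekeeping scaling, 2 without a filter, 3 with DESeq2 without the filter and 3 with it, and 0 to 2 without 1 liver (2 without sgCtrl 7.1). Their median of -0.38 became -0.77 with total counts and -0.77 with housekeeping scaling, and -0.50 to -0.19 without 1 liver (-0.19 without sgCtrl 7.2). Relative to the median of all genes it was -0.36, -0.38 and -0.39 under TMM, total counts and housekeeping scaling. With housekeeping scaling, an alternative chosen after seeing the data for this count, 7 proteases were lower without overlap, beside 44.3% of all genes. The sign turned for Ctsa with RLE (0.010), DESeq2 without (0.0023) and with the filter (0.010) and without 1 liver (-0.16 to 0.093), for Ctsh with total counts (-0.058) and housekeeping scaling (-0.062), for Ctsz with total counts (-0.37), housekeeping scaling (-0.39) and without 1 liver (-0.24 to 0.16), and for Ctsl without 1 liver (-0.50 to 0.10). Relative to the median of all genes, Ctsh stayed at 0.33 and 0.32 and Ctsz at 0.012 and -0.0015 under total counts and housekeeping scaling, so their turned signs follow the shift of all genes. Ctss and Lgmn kept their sign in all 14 alternatives, with edgeR or DESeq2 adjusted p of 0.000509 to 0.171 and 0.00223 to 0.195. The causes were not tested, except that leaving out a liver leaves fewer samples. No paired analysis was possible because the groups share no replicate number.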
